A study of Mus musculus with 9 samples.

Results

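The endoplasmic reticulum (ER) chaperone and unfolded protein response genes examined here are 41 named genes. They are 3 sensors and transcription factors, 11 genes of an Hsp70 and Hsp90 chaperone group, 2 lectin chaperones and 11 disulfide isomerases and oxidases. The rest are 9 genes of ER-associated degradation, 4 of translocation into the ER and Ufm1. The Hsp70 and Hsp90 group includes their cofactors, and also Creld2 and Fkbp2, which belong to neither system. All members were taken by gene symbol, from a list drawn up with earlier results of these data known. All 41 were found among the 15343 genes of the table. Genes were tested where 3 or more of the 9 libraries reached a normalized count of 10, which kept 40 of the 41 and 13895 genes in all. Derl3, a degradation gene, did not pass, with values from 0.8 to 8.1, and no change is given for it.

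RNA was sequenced from primary mouse macrophages of the peritoneal cavity, marked WT in their titles and of a strain written CF7B1/6. All cells received lipopolysaccharide (LPS), the cell wall component of Gram-negative bacteria that is sensed by TLR4, at 100 ng/ml for 6 h. The LPS group, the control here, had no pretreatment in its labels. The DHA + LPS group was pretreated for 1 h with docosahexaenoic acid (DHA), a long-chain omega-3 fatty acid, at 100 µM. The cpdA + LPS group was pretreated for 1 h with 10 µM cpdA, named in the labels as an agonist of Gpr120, a receptor for such fatty acids. Each group had 3 libraries, called LPS 1 to 3, DHA 1 to 3 and cpdA 1 to 3 below. Unstimulated cells were not analysed here, so a difference is between LPS-treated cells with and without the pretreatment step. The labels give neither the animals' age nor whether the 3 libraries of a group came from separate animals or cultures, so each p-value measures the spread between these libraries, which may be technical.

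Proteins that are secreted or placed in membranes enter the ER through the Sec61 channel, fold there with the help of chaperones and receive disulfide bonds from protein disulfide isomerases. Chains that fail to fold are passed back to the cytosol and degraded, a route known as ER-associated degradation (ERAD). When unfolded chains accumulate, the sensors IRE1 (encoded by Ern1), ATF6 and PERK (encoded by Eif2ak3) start the unfolded protein response: IRE1 splices the Xbp1 mRNA, ATF6 is cut into a free transcription factor, and PERK phosphorylates eIF2alpha. XBP1 and ATF6 then raise transcription of chaperone and ERAD genes through short elements in their promoters. The deposited values are 1 per gene, so the spliced and unspliced forms of Xbp1 cannot be told apart, nor can the cleavage of ATF6 be read from them.

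The elements known for ATF6 and XBP1 were looked for in the promoters of the 41 genes. RefSeq promoter windows of build GRCm38.p6, running from 250 bases before to 50 bases after the annotated start, were at hand for 33 of the 41 genes (39 windows). The ER stress response element, ERSE, was read as CCAAT, 9 bases of any kind and CCACG, on both strands. It was found in 10 of the 39 windows (25.6%), those of Hspa5, Hsp90b1, Calr, Canx, Pdia6, Dnajc3, Creld2, Ero1lb, Syvn1 and Derl3, and in 0.119% of all 32851 windows of the table. The related element ERSE-II (ATTGG, 1 base of any kind, CCACG) was found in 2 windows, those of Herpud1 and Dnajb11, and in 0.0365% of all windows. With a gap of 8 to 10 bases the ERSE still matched 10 of the members' windows, against 0.183% of all. The 41 genes were picked as genes of the response for which these elements are known. Their share of matches is therefore a description and not a test.

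The matches are printed below with 8 flanking bases on each side, because they show what is constant between genes (the capitals, the letters of the element) and what is not. Each is written 5′ to 3′ on the strand that reads CCAAT or ATTGG first, and the gene's own strand is the same unless stated.
Hspa5, chr2:34772025-34772043, last base 47 before the start: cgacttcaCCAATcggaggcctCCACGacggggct
Hsp90b1, chr10:86705638-86705656, last base 194 before the start: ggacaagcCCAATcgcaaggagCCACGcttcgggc
Hsp90b1, chr10:86705533-86705551, last base 89 before the start, opposite strand: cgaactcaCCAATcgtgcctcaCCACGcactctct
Calr, chr8:84847075-84847093, last base 144 before the start, opposite strand: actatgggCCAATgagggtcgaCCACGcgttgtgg
Canx, chr11:50325800-50325818, last base 127 before the start: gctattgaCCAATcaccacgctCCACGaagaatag
Pdia6, chr12:17266491-17266509, last base 80 before the start: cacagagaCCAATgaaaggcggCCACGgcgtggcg
Dnajc3, chr14:118937827-118937845, last base 87 before the start: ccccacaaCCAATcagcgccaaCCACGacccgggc
Creld2, chr15:88819520-88819538, last base 108 before the start, opposite strand: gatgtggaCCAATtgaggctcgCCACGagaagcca
Ero1lb, chr13:12565682-12565700, last base 183 before the start, opposite strand: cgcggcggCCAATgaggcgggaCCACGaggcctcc
Derl3, chr10:75893242-75893260, last base 138 before the start, opposite strand: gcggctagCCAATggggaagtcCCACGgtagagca
Syvn1, chr19:6046532-6046550, last base 26 before the start: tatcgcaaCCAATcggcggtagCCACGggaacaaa
Herpud1, chr8:94386377-94386387, ERSE-II, last base 42 before the start: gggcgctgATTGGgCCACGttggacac
Dnajb11, chr16:22857852-22857862, ERSE-II, 18 bases past the start: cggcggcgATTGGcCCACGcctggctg

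Of these sites, those other than the one in Dnajb11 lay before the start, on either strand. The Hspa5 window, chr2:34771840-34772139, also held TGACGTG, the letters of the unfolded protein response element, which begin at chr2:34771933 and are in capitals with the ERSE.
Hspa5 window: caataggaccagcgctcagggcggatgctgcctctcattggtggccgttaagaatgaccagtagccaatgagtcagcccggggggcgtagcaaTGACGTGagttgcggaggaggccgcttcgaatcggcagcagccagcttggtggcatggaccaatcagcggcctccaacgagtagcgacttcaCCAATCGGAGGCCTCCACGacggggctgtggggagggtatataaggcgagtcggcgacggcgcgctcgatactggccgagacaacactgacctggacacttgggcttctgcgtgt
That element, in 2 of 39 windows (5.13%) and 2.01% of all, was found in 1 other member, Txndc5, and in 9.01% of the windows of the other ER genes described below. A match describes letters and is not a measured binding site.

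**Figure D1:**
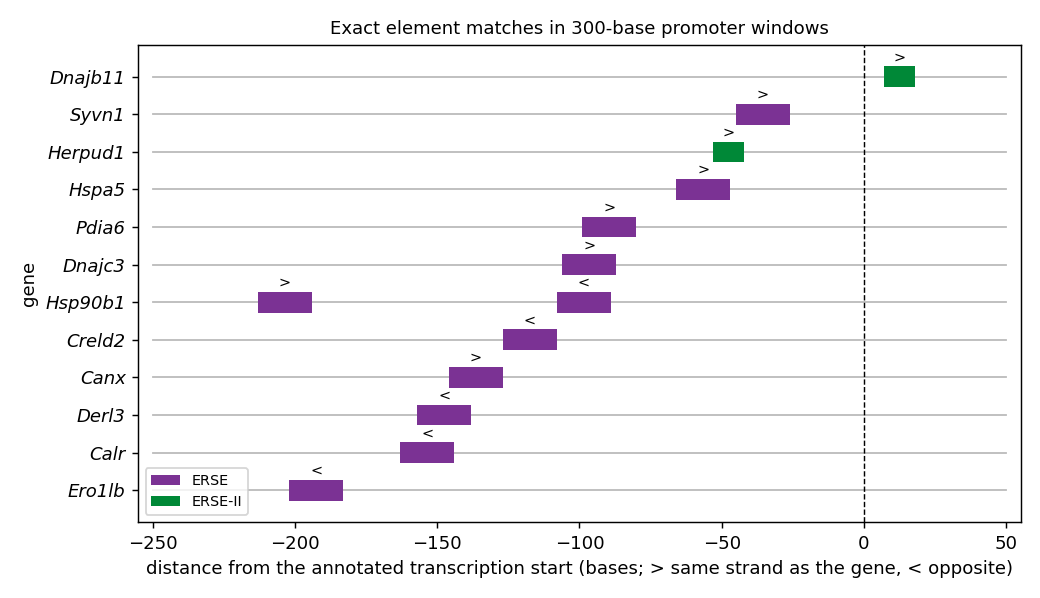
Position of each exact ERSE (purple) or ERSE-II (green) match in the 300-base promoter windows of 12 genes, in bases from the annotated start (dashed line); arrows give the strand relative to the gene. Of the matches drawn, only that of Dnajb11 lies past the start, at 18 bases, and Hsp90b1 has 2.

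The 9 libraries were not equally alike, and this bears on every test below. Reads recovered from the normalized counts numbered 13797079 in DHA 1 and from 24842170 to 37572822 in the others. The spread between LPS 1 and LPS 2, over 9149 genes of middling level, was 2 times counting noise, against 14 between LPS 1 and LPS 3, 27.4 between cpdA 1 and cpdA 3, and 1.29 between DHA 1 and cpdA 1, which are of different groups and were the most alike of all pairs. LPS 3 and cpdA 3 therefore stand apart from the other libraries of their groups, and the members' results are given with all 9 libraries and mostly also in a fit of 7 libraries without these, an exclusion that earlier results of these data led to. Whether the library labels are right was not tested, and a wrong label would change what the differences between groups mean. Of the macrophage markers 12 of 13 were found. Their summed level ran from 334178 to 587928 in LPS, 564556 to 586859 in DHA + LPS and 389405 to 591100 in cpdA + LPS. The low sums were those of LPS 3 and cpdA 3. Most of each sum was Lyz2, at 210386 and 269048 there against 447053 to 459826 elsewhere. The median of the 12 markers against LPS 1 and LPS 2 was -0.19 in LPS 3, -0.32 in cpdA 3 and -0.23 in DHA 2 (log2). Single markers went both ways: in LPS 3 Mertk stood at 10615 and Timd4 at 95.2, against 6930 and 194.6 in LPS 1. Neat1, a nuclear RNA kept as a sign of RNA quality, stood at 46514 in cpdA 3 and between 7382 and 15888 in the others; over the 5 genes kept for RNA quality, the median stood 0.71 above LPS 1 and LPS 2 in LPS 3, 0.40 in DHA 2 and 0.97 in cpdA 3 (log2), and Kcnq1ot1 was highest in LPS 3, at 5155, and at 2744 in cpdA 3. Their part in the results was not tested.

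Most of the genes had higher normalized counts after either pretreatment than with LPS alone. With DHA, 38 of 40 had a positive change, against 49.8% of all genes tested, and the median log2 change was 0.28 against -0.00067 over all genes. With cpdA, 38 of 40 were positive, against 49.4% of all, with a median of 0.32 against -0.0043. All 3 DHA libraries lay above all 3 LPS libraries for 26 of 40 genes (13% of all genes) and below for 1, Os9 (15% of all genes). All 3 cpdA libraries lay above all 3 LPS libraries for 32 of 40 (10.7% of all genes) and below for 0 (12.2% of all). Both comparisons use the same 3 LPS libraries and are not independent of each other. For 25 of the 40 genes the 3 LPS libraries were the lowest 3 of the 9. That count was not made over all genes, so it has no share to be read against. In RNA pooled over many cells, a different share of cells and a different amount of RNA per cell cannot be told apart.

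No member passed the limma test with all 9 libraries at a Benjamini-Hochberg adjusted p of 0.05, in any of the 3 comparisons. That test called 1 gene of 13895 higher (0.0072%) for each pretreatment, and 0% lower. At an unadjusted p under 0.05, 20 members were higher with DHA and 0 lower, against 7.49% and 6.66% of all genes, and 22 higher with cpdA and 0 lower, against 6.56% and 8.05%. The smallest adjusted p was 0.159 with DHA, for Xbp1 and Manf, and 0.0809 with cpdA, for Manf. The edgeR test on recovered reads called 0 members in any comparison (0.0144% of all genes higher and 0.0072% lower with DHA, 0.0072% higher with cpdA). DESeq2 on the same reads called 7 members higher with DHA, against 1.2% of all genes higher and 1.07% lower, and 16 higher with cpdA, against 1.39% higher and 1.42% lower.

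In the 7-library fit, 18 members rose with DHA and 0 fell, where 2.75% of all genes rose and 4.04% fell. The 18 were Hspa5, Hsp90b1, Hyou1, Dnajb9, Dnajc3, Manf, Sdf2l1, Creld2, Calr, Pdia3, Pdia4, Pdia6, Txndc5, Herpud1, Edem1, Tram1, Xbp1 and Atf6. With cpdA 11 rose and 0 fell, where 0.712% of all genes rose and 0.885% fell: Hspa5, Hsp90b1, Hyou1, Dnajc3, Manf, Sdf2l1, Creld2, Pdia4, Pdia6, Herpud1 and Xbp1. In that fit 36 of 40 changes were positive with DHA (48.6% of all genes) and 37 with cpdA (49.5%). The DHA libraries lay above LPS 1 and LPS 2 for 30 genes (19.1% of all genes) and below for 1 (21.5%). For 35 genes cpdA 1 and cpdA 2 lay above LPS 1 and LPS 2 (24.5%), and for 0 below (25% of all).

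The number of calls depended on which libraries were in the fit. Leaving out cpdA 3 alone, which is not in either group of the DHA comparison, gave 13 members higher with DHA (1.11% of all genes) and 0 with cpdA. Weights that let limma count LPS 3 and cpdA 3 for less gave 26 higher and Os9 lower with DHA (16.2% of all genes higher and 14.8% lower) and 16 higher with cpdA (2.17%). Because DHA 1 and cpdA 1 differed so little, the 7-library fit was also run without each, a choice made after seeing the data. Without DHA 1, 19 members were higher with DHA (11.6% of all genes) and 17 with cpdA (2.42%). Without cpdA 1, 16 were higher with DHA (1.71%) and 0 with cpdA, which then had cpdA 2 as its only library, assumed to vary like the other groups. The cpdA calls of the 7-library fit were thus lost without cpdA 1.

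**Figure D2:**
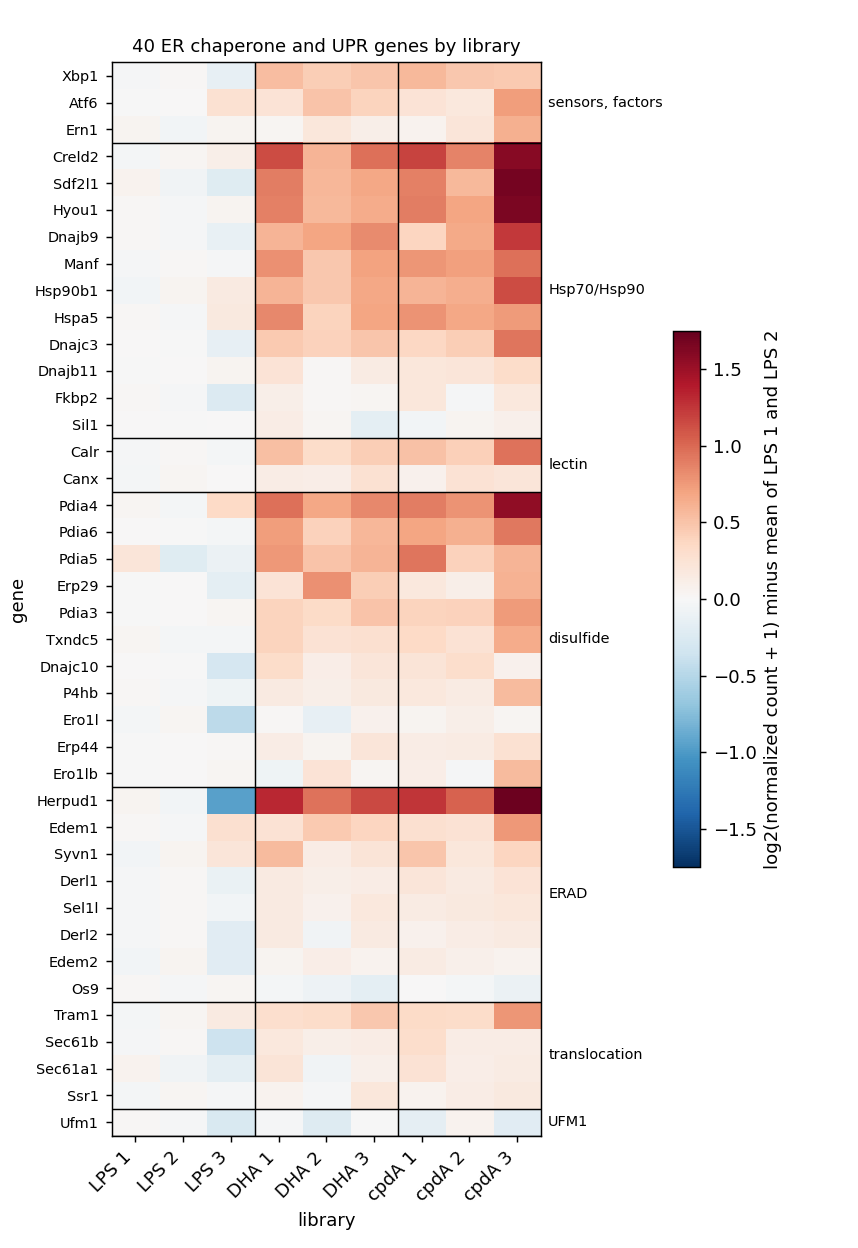
Colour shows log2(normalized count + 1) of each of 40 genes (rows, by role) in each of 9 libraries (columns), minus the gene's mean in LPS 1 and LPS 2. Red dominates the DHA and cpdA columns in the Hsp70/Hsp90 rows and in Herpud1, and cpdA 3 is the highest of 9 libraries for 23 of 40 genes.

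By library, the median difference of the 40 genes from the mean of LPS 1 and LPS 2 was -0.034 for LPS 3 (log2). It was 0.25, 0.25 and 0.27 for the DHA libraries in their order and 0.27, 0.23 and 0.58 for the cpdA libraries. The 3 DHA libraries and cpdA 1 and 2 were thus close to each other, with cpdA 3 well above them. cpdA 3 was the highest of 9 for 23 genes and more than 1.2 times the higher of the other cpdA libraries for 18, whereas LPS 3 was the lowest of 9 for 21. DHA 2 was the lowest DHA library for 30 of 40. The median coefficient of variation was 5.93% over the LPS libraries, 7.57% over DHA and 10.7% over cpdA, and 4.02% between cpdA 1 and cpdA 2.

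The sensors and transcription factors (3 genes) comprised 1 gene well above LPS in every treated library, Xbp1, and 2 whose libraries overlapped in at least 1 comparison. Xbp1, the transcription factor whose mRNA IRE1 splices, had normalized counts of 3075, 3185 and 2820.0 with LPS, 4561, 4229.7 and 4395 with DHA + LPS and 4645, 4342 and 4318 with cpdA + LPS (libraries 1, 2 and 3 in that order, here and below). All 6 treated libraries lay above all 3 LPS libraries, and cpdA 3 was the lowest of its group, unlike in most members. The log2 change was 0.54 (SE 0.090) with DHA and 0.55 (SE 0.090) with cpdA, with limma adjusted p of 0.159 and 0.132. In the 7-library fit Xbp1 rose by 0.49 and 0.52 (limma adjusted p = 0.00477 and 0.0126), and over all settings and tools tried the adjusted p ran from 3.4e-07 to 0.551 with DHA and from 1e-07 to 0.465 with cpdA, the lower ends from DESeq2.

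Atf6, the membrane-bound sensor that is cut into a transcription factor, had 1436, 1446 and 1737 with LPS, 1703, 2043 and 1894 with DHA + LPS and 1697, 1639 and 2398 with cpdA + LPS. LPS 3 lay above DHA 1, cpdA 1 and cpdA 2, so the groups overlapped. The change was 0.29 (SE 0.16) with DHA and 0.30 (SE 0.16) with cpdA (limma adjusted p = 0.419 and 0.407), and without LPS 3 and cpdA 3 it was 0.38, a rise, and 0.21, not past the test. Ern1, which encodes the sensor IRE1, had 698.9, 655.7 and 696.8 with LPS, 691.0, 775.8 and 728.9 with DHA + LPS and 707.8, 784.7 and 1041 with cpdA + LPS. DHA 1 lay among the LPS libraries, and all 3 cpdA libraries were above LPS, cpdA 1 by little and cpdA 3 by the most. The Ern1 change was 0.097 (SE 0.13) and 0.29 (SE 0.13), or 0.11 and 0.14 in the 7-library fit, past the test in neither.

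Among the 11 genes of the Hsp70 and Hsp90 group, Creld2 and Fkbp2 included, the shifts were the largest of the role groups with several genes. The median change was 0.58 with DHA and 0.74 with cpdA (0.64 and 0.61 in the 7-library fit). All treated libraries lay above all LPS libraries for 9 of 11 in each comparison (13% of all genes with DHA, 10.7% with cpdA). In the 7-library fit 8 rose with DHA (2.75% of all genes) and 7 with cpdA (0.712%). By library the group's median stood 0.60, 0.48 and 0.68 above LPS 1 and LPS 2 for the DHA libraries in their order and 0.59, 0.64 and 0.96 for the cpdA libraries. For this group LPS 3 was at 0.0067, level with LPS 1 and LPS 2.

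Hspa5 encodes BiP, the ER Hsp70 that binds unfolded chains and holds the sensors inactive. It had normalized counts of 29599, 28790.4 and 32965 with LPS, 52217, 38259.7 and 47048 with DHA + LPS and 50227, 46854 and 49119 with cpdA + LPS. The 3 groups of libraries did not overlap between LPS and either pretreatment, DHA 2 was the nearest to LPS, and the cpdA libraries were close together. The mean was 30451 ± 2214 with LPS, 45841 ± 7056 with DHA + LPS and 48733 ± 1720 with cpdA + LPS (SD, n = 3). The change was 0.58 (SE 0.16) and 0.68 (SE 0.16) (limma adjusted p = 0.236 and 0.2). Hspa5 rose by 0.64 and 0.73 in the 7-library fit (limma adjusted p = 0.0143 and 0.0247), with a range over the settings and tools tried of 0.00038 to 0.603 for DHA and 9.5e-05 to 0.465 for cpdA.

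Hsp90b1 encodes GRP94, the Hsp90 of the ER. Its counts were 13223, 14098 and 15222 with LPS, 20624, 19015 and 21894 with DHA + LPS and 20569.8, 21243 and 29996 with cpdA + LPS. Every treated library was above every LPS library, and cpdA 3 was 1.41 times the next cpdA library. The change was 0.53 (SE 0.17) with DHA and 0.74 (SE 0.17) with cpdA, and 0.58 and 0.61 in the 7-library fit, a rise in both. Hyou1, a large Hsp70-like chaperone that releases nucleotide from BiP, had 2681, 2620.4 and 2735 with LPS, 4893, 3922 and 4178 with DHA + LPS and 4927, 4271 and 8286 with cpdA + LPS. The LPS libraries were tightly grouped, and cpdA 3 was 1.68 times the next cpdA library. Its change was 0.69 (SE 0.22) and 1.06 (SE 0.22); without LPS 3 and cpdA 3 it rose by 0.70 and 0.79.

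Creld2, a secreted ER protein induced by ER stress, had 569.5, 600.4 and 626.2 with LPS, 1286, 880.7 and 1145 with DHA + LPS and 1325, 1072 and 1769 with cpdA + LPS. Within the treated groups the libraries differed, DHA 2 being 0.685 times DHA 1, yet none reached down to the LPS range. The change was 0.87 (SE 0.19) with DHA and 1.18 (SE 0.19) with cpdA (limma adjusted p = 0.201 and 0.132), and it rose by 0.90 and 1.03 in the 7-library fit. Sdf2l1, a cofactor of BiP and its J-domain partners, had 805.4, 737.5 and 663.0 with LPS, 1438, 1151 and 1236 with DHA + LPS and 1419, 1146 and 2455 with cpdA + LPS. Again no treated library overlapped LPS, and cpdA 3 was 1.73 times the next of its group. Its change was 0.79 (SE 0.24) and 1.11 (SE 0.24), or 0.72 and 0.73, a rise in each, without LPS 3 and cpdA 3.

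Sil1, a nucleotide exchange factor of BiP, had the smallest change of this group. Its counts were 531.5, 527.8 and 532.1 with LPS, 579.6, 544.6 and 468.5 with DHA + LPS and 514.2, 545.3 and 561.4 with cpdA + LPS, so all groups overlapped. The change was -0.0045 (SE 0.098) and 0.026 (SE 0.098), each sign depending on the setting. Of the members called in the 7-library fit, Manf, a secreted factor retained in the ER, rose by 0.66 with DHA and 0.75 with cpdA. Dnajc3, a J-domain cofactor of BiP, rose by 0.44 and 0.40. Dnajb9, another J-domain cofactor and one that represses IRE1, rose by 0.71 with DHA and had a change of 0.52, not past the test, with cpdA. All treated libraries of Manf, Dnajc3 and Dnajb9 lay above all LPS libraries.

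**Figure D3:**
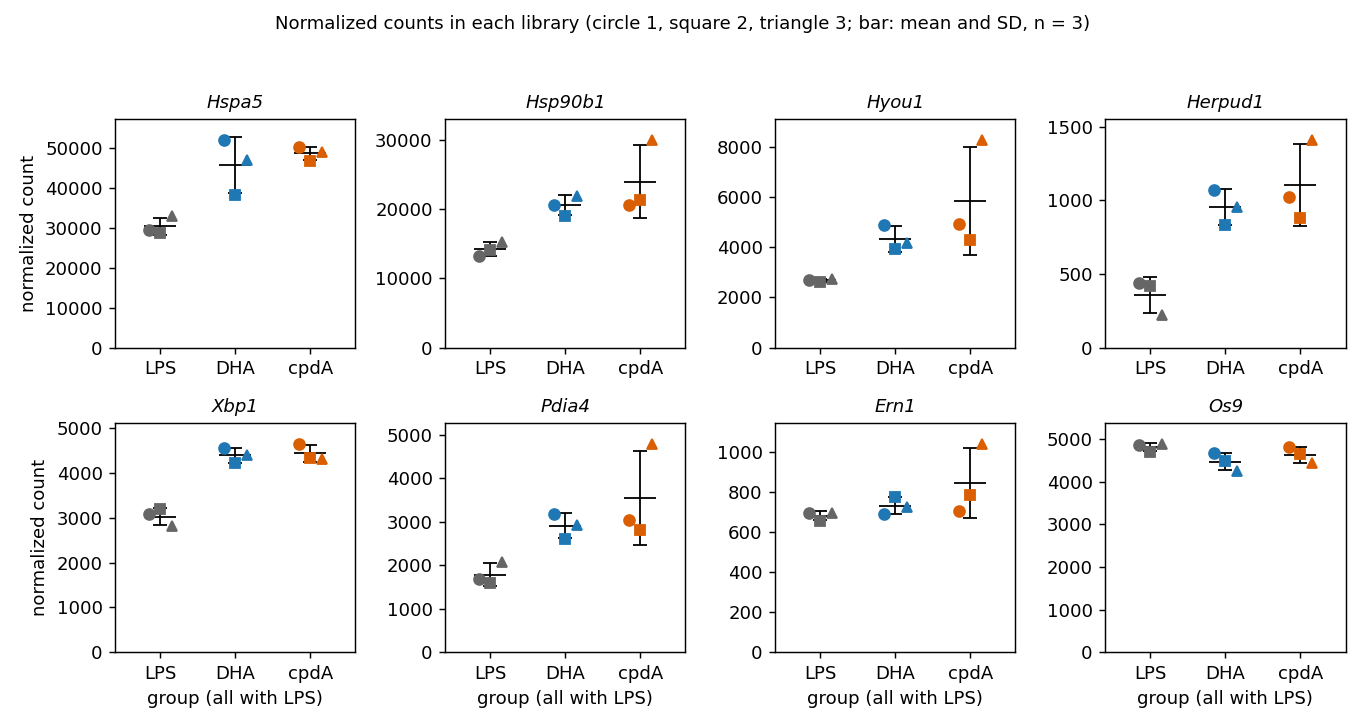
Normalized count (vertical axis, from 0) of 8 members in each library of the 3 groups; circles, squares and triangles are libraries 1, 2 and 3, and bars give the mean and SD (n = 3). For Hspa5, Hsp90b1, Hyou1, Herpud1, Xbp1 and Pdia4 all treated libraries lie above all LPS libraries, whereas Ern1 overlaps with DHA and Os9 lies below LPS with DHA.

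The lectin chaperones, which hold glycoproteins while they fold, are a soluble and a membrane-bound protein. Calr, the soluble calreticulin, had 18381, 18774 and 18072 with LPS, 26822, 23179 and 25038 with DHA + LPS and 26522, 24908 and 35805 with cpdA + LPS. The LPS libraries were close together and all treated libraries were above them. Its change was 0.44 (SE 0.16) with DHA and 0.64 (SE 0.16) with cpdA; in the 7-library fit it rose by 0.43 with DHA and had a change of 0.47, not past the test, with cpdA. Canx, the membrane-bound calnexin, had 12713, 13414 and 13109 with LPS, 14320.3, 14141 and 15766 with DHA + LPS and 13733, 15596 and 15072 with cpdA + LPS. All treated libraries were again above LPS, but cpdA 1 only just. Its change was 0.17 (SE 0.11) and 0.18 (SE 0.11) (limma adjusted p = 0.503 and 0.492), and it passed the 7-library fit in neither comparison.

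The 11 disulfide isomerases and oxidases had a median change of 0.32 with DHA and 0.36 with cpdA (0.31 and 0.27 in the 7-library fit). All DHA libraries lay above all LPS libraries for 9 of 11 (13% of all genes) and all cpdA libraries for 10 of 11 (10.7%). In the 7-library fit 4 rose with DHA (2.75% of all genes), Pdia3, Pdia4, Pdia6 and Txndc5, and 2 with cpdA (0.712%), Pdia4 and Pdia6. Pdia4, a protein disulfide isomerase, had 1675, 1597 and 2079 with LPS, 3181, 2612 and 2929 with DHA + LPS and 3046, 2809 and 4789.8 with cpdA + LPS. LPS 3 was 1.27 times the mean of LPS 1 and LPS 2 and cpdA 3 was 1.57 times the next cpdA library, and still no treated library reached the LPS range. The change was 0.71 (SE 0.20) with DHA and 0.96 (SE 0.20) with cpdA, with a rise of 0.82 and 0.84 in the 7-library fit.

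Pdia6, an isomerase found in complexes with BiP, had 4874, 4854 and 4764 with LPS, 8108, 6414 and 7272 with DHA + LPS and 7821, 7475 and 9208 with cpdA + LPS. Its LPS libraries were close together, and every treated library stood above them. The change was 0.58 (SE 0.12) and 0.75 (SE 0.12) (limma adjusted p = 0.193 and 0.132), and it rose by 0.57 and 0.65 in the 7-library fit. Pdia5, another isomerase, had 97.8, 72.6 and 78.8 with LPS, 142.7, 119.5 and 128.0 with DHA + LPS and 162.9, 111.5 and 127.7 with cpdA + LPS. LPS 1 was near the lowest treated library, at 97.8 against 111.5 in cpdA 2, without overlap. Its change was 0.65 (SE 0.19) with DHA and 0.68 (SE 0.19) with cpdA, and in the 7-library fit 0.62 and 0.67, past the test in neither. Of the others called with DHA in that fit, Pdia3, the isomerase that pairs with calnexin and calreticulin, rose by 0.41, and Txndc5 rose by 0.31.

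The oxidases, which pass electrons from the isomerases to oxygen, passed no test with all 9 or with 7 libraries. Ero1lb had 683.6, 692.6 and 706.0 with LPS, 653.2, 815.3 and 706.7 with DHA + LPS and 744.9, 679.7 and 1009 with cpdA + LPS. DHA 1 and cpdA 2 were the lowest of all 9 libraries, and cpdA 3 the highest. The change of Ero1lb was 0.057 (SE 0.15) and 0.20 (SE 0.15), each negative with some libraries left out, and its promoter window is one of those with an ERSE. Ero1l, the other oxidase, had changes of 0.14 (SE 0.14) and 0.21 (SE 0.14) that became -0.015 and 0.073 without LPS 3 and cpdA 3, and LPS 3 stood at 0.729 times the other LPS libraries.

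Of the 9 ERAD genes 8 were tested, and Herpud1 had the largest change of all members in both comparisons. Herpud1, a membrane protein that joins the degradation complex, had 441.3, 416.0 and 221.0 with LPS, 1072, 832.2 and 954.8 with DHA + LPS and 1022, 878.2 and 1412 with cpdA + LPS. Every treated library was well above every LPS library, with LPS 3 at 0.516 times the mean of LPS 1 and LPS 2. The mean was 359 ± 121 with LPS, 953 ± 120 with DHA + LPS and 1104 ± 276 with cpdA + LPS (SD, n = 3). The change was 1.46 (SE 0.27) and 1.65 (SE 0.27) (limma adjusted p = 0.183 and 0.132). In the 7-library fit it rose by 1.14 and 1.14 (limma adjusted p = 0.00042 and 0.00168). The adjusted p over settings and tools ran from 2.5e-07 to 0.583 with DHA and from 1.9e-07 to 0.465 with cpdA. Both lower ends came from the 7-library fit without DHA 1, which was added after seeing the data. The DESeq2 adjusted p was 0.00039 with DHA and 9.0e-06 with cpdA.

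The median change of the 8 tested ERAD genes, Herpud1 included, was 0.16 with DHA and 0.21 with cpdA (0.13 and 0.17 in the 7-library fit). All treated libraries were above all LPS libraries for 3 of 8 with DHA (13% of all genes) and 5 of 8 with cpdA (10.7%). Edem1, which helps extract mannose-trimmed glycoproteins, had 3419, 3349 and 4128 with LPS, 4033, 4634 and 4407 with DHA + LPS and 4102, 4022 and 5750.5 with cpdA + LPS. LPS 3 lay above DHA 1, cpdA 1 and cpdA 2, so the groups overlapped. Its change was 0.27 (SE 0.15) with DHA and 0.34 (SE 0.15) with cpdA; without LPS 3 and cpdA 3 it rose by 0.36 with DHA and had a change of 0.26, not past the test, with cpdA.

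Syvn1, the ubiquitin ligase HRD1 at the centre of ERAD, had 2109.6, 2245 and 2531 with LPS, 3188, 2387 and 2553 with DHA + LPS and 3044, 2500.0 and 2829 with cpdA + LPS. DHA 1 and cpdA 1 were its highest libraries, while LPS 3 lay above DHA 2 and cpdA 2. Its change was 0.23 (SE 0.13) and 0.28 (SE 0.13), or 0.30 and 0.34 in the 7-library fit, past the test in neither. Os9, a lectin that hands glycoproteins to HRD1, was the 1 member with all DHA libraries below all LPS libraries. It had 4856, 4704 and 4882 with LPS, 4670.2, 4474 and 4259 with DHA + LPS and 4808, 4654 and 4431 with cpdA + LPS. The gap was small, and cpdA overlapped LPS. Its change was -0.11 (SE 0.088) with DHA and -0.056 (SE 0.088) with cpdA, the latter positive under quantile normalization (limma adjusted p = 0.589 and 0.803).

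The 4 translocation genes had a median change of 0.20 with DHA and 0.27 with cpdA (0.11 and 0.20 in the 7-library fit). In that fit 1, Tram1, rose with DHA (2.75% of all genes). Tram1, a membrane protein beside the channel, had 2822, 2965 and 3235 with LPS, 3553, 3613 and 4014 with DHA + LPS and 3637, 3603 and 4954 with cpdA + LPS. All treated libraries were above LPS, and cpdA 3 was 1.36 times the next. The change was 0.31 (SE 0.14) and 0.42 (SE 0.14), with 0.36 and 0.32 in the 7-library fit, the latter not past the test. Sec61b, the beta subunit of the channel, had 722.8, 737.5 and 569.9 with LPS, 831.5, 781.4 and 801.3 with DHA + LPS and 905.7, 797.0 and 801.3 with cpdA + LPS. All treated libraries were above all LPS libraries, LPS 3 being the lowest of all libraries. The change was 0.26 (SE 0.11) and 0.31 (SE 0.11), and without LPS 3 and cpdA 3 0.14 and 0.22, not past the test.

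Sec61a1, the pore-forming subunit, had 5647, 5213 and 4829.6 with LPS, 6339.8, 5184 and 5781 with DHA + LPS and 6470.1, 5885 and 5996 with cpdA + LPS. DHA 2 lay within the LPS range, and all cpdA libraries above it. Its change was 0.14 (SE 0.11) and 0.23 (SE 0.11), or 0.083 and 0.19 in the 7-library fit, past the test in neither. Ssr1, a subunit of the translocon-associated complex, had 4228, 4437 and 4257 with LPS, 4505, 4285 and 4981 with DHA + LPS and 4505, 4742 and 4881 with cpdA + LPS. The DHA group overlapped LPS, and cpdA lay just above it. Its change was 0.089 (SE 0.094) and 0.13 (SE 0.094), or 0.081 and 0.094 in the 7-library fit, past the test in neither. Ufm1, the ubiquitin-like modifier that is attached to ribosomes at the ER, had 2129, 2063 and 1742 with LPS, 2071, 1786 and 2081 with DHA + LPS and 1888, 2192 and 1818 with cpdA + LPS. All 3 groups overlapped. Its change was 0.0028 (SE 0.12) with DHA and -0.0083 (SE 0.12) with cpdA, and the sign of each depended on the setting.

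**Figure D4:**
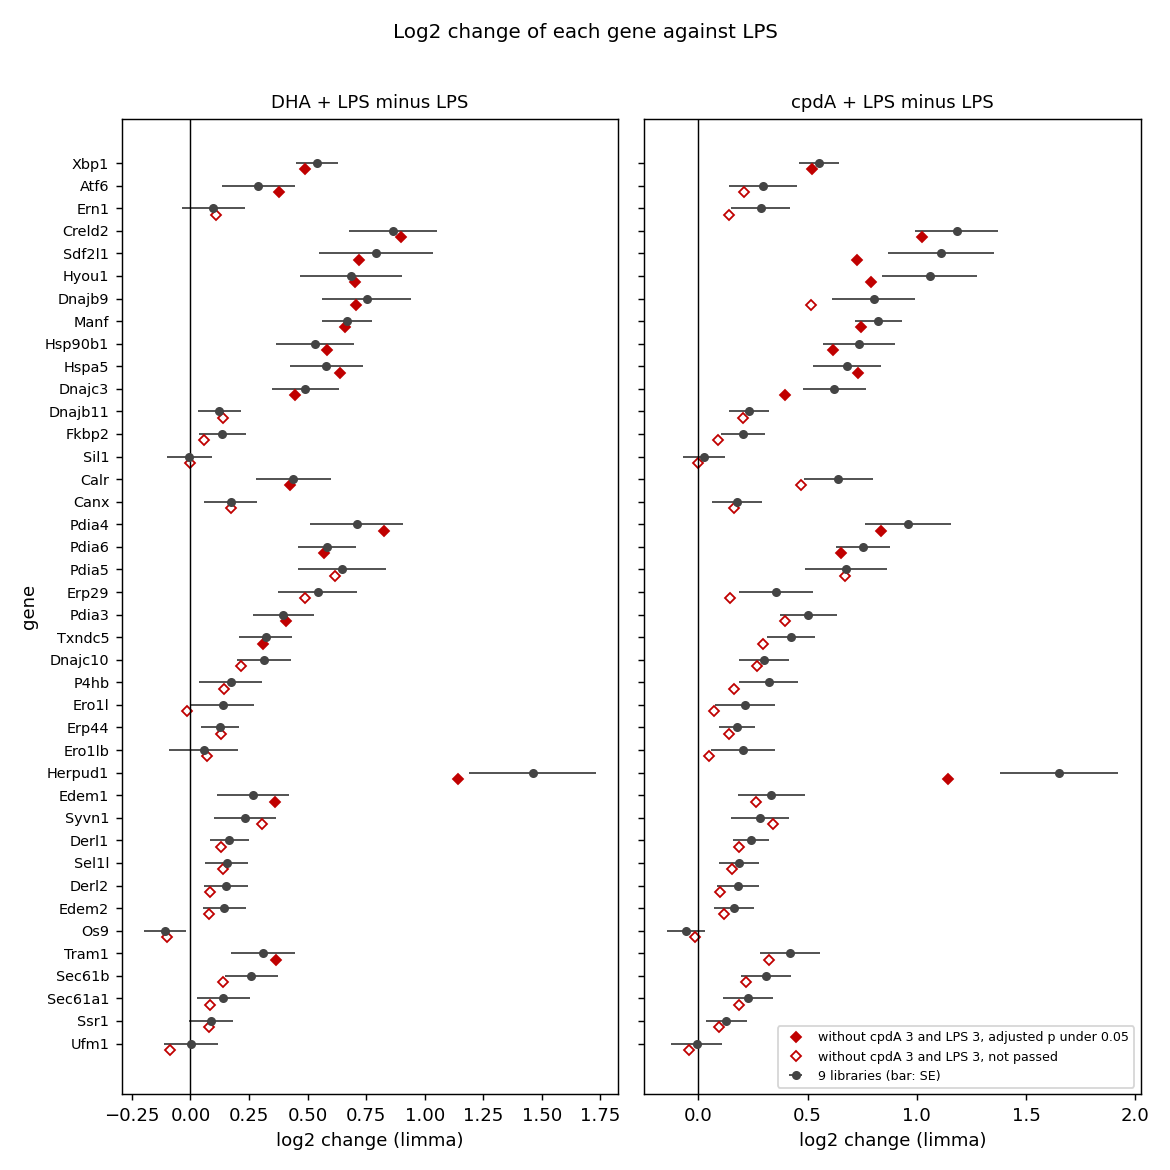
Log2 change (horizontal axis) of each of 40 genes with DHA (left) and cpdA (right) against LPS; grey circles with SE bars use all 9 libraries, red diamonds the 7 libraries without LPS 3 and cpdA 3, filled where the adjusted p is under 0.05. Herpud1 lies farthest to the right, at 1.46 and 1.65, and filled diamonds number 18 for DHA and 11 for cpdA (2.75% and 0.712% of all genes rose).

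The members with an element in the promoter were set beside those without, as a description. The 11 tested members whose window held an ERSE or ERSE-II had, with all 9 libraries, a median change of 0.49 with DHA and 0.64 with cpdA, with ranges of 0.057 to 1.46 and 0.18 to 1.65. The 21 members with a window that held neither had medians of 0.17 and 0.30, and ranges of -0.11 to 0.79 and -0.056 to 1.11. Sdf2l1 gave the highest value of the second set. The 8 members without a window in the table, among them Hyou1, Manf and Atf6, had medians of 0.30 and 0.33. The ranges overlap throughout: Canx and Ero1lb hold an ERSE beside small changes, and Pdia4 and Dnajb9 hold neither element beside larger ones.

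Other ER genes outside the 41 shifted less by their median. Of 121 other ER genes tested, in 7 lists, 87 had a positive change with DHA and 85 with cpdA (49.8% and 49.4% of all genes), and the median was 0.097 and 0.089. The all-library limma fit called 0 of the 121, with 22 higher and 3 lower at an unadjusted p under 0.05 with DHA (7.49% and 6.66% of all genes) and 29 and 4 with cpdA (6.56% and 8.05%). In the 7-library fit 6 rose and 2 fell with DHA, where 2.75% and 4.04% of all genes did, and 2 rose and 0 fell with cpdA, where 0.712% and 0.885% did. None of their 111 promoter windows held an ERSE or ERSE-II. By library their median stood at -0.10 in LPS 3, between -0.0058 and 0.11 in DHA + LPS, and between 0.045 and 0.097 in cpdA + LPS.

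Among the sensors outside the 41, Eif2ak3, which encodes PERK, had 385.8, 320.4 and 304.9 with LPS, 539.5, 568.3 and 480.8 with DHA + LPS and 517.4, 441.1 and 779.6 with cpdA + LPS. No treated library overlapped LPS. The change was 0.65 (SE 0.20) with DHA and 0.74 (SE 0.20) with cpdA, and in the 7-library fit it rose by 0.59 with DHA and had a change of 0.44, not past the test, with cpdA. Creb3l2, an ER-bound transcription factor related to ATF6, had a change of 1.06 (SE 0.20) and 1.12 (SE 0.20), and rose in both comparisons of the 7-library fit, by 0.83 and 0.77. Bak1, a death effector that also acts at the ER, had a change of -0.35 (SE 0.17) and -0.39 (SE 0.17), or -0.37 and -0.22 with 7 libraries.

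In ER-to-Golgi transport, Sec24d, a COPII coat subunit, had a change of 0.67 (SE 0.15) and 0.81 (SE 0.15) and rose by 0.54 and 0.54 in the 7-library fit, whereas its relative Sec24b had a change of -0.44 (SE 0.26) and -0.56 (SE 0.26), or -0.27 and -0.073 with 7 libraries. Kdelr3, a receptor that returns escaped ER proteins, had a change of 0.58 (SE 0.19) and 0.73 (SE 0.19), or 0.50 and 0.65 with 7 libraries. In the glycosylation list Rpn1, a subunit of oligosaccharyltransferase, rose by 0.37 with DHA in the 7-library fit, against 0.44 (SE 0.14), not past the test, with all 9. In the signal peptidase list Spcs2 rose by 0.30 with DHA in that fit, against 0.29 (SE 0.11), not past the test, with all 9. Spcs3 had a change of 0.30 with 7 libraries and 0.37 (SE 0.14) with 9, and Sec61a2 of -0.33 and -0.47 (SE 0.17). The 2 genes that fell there with DHA were P4ha1, a collagen prolyl hydroxylase, at -0.41, and Rnf139, a ubiquitin ligase, at -0.36. With all 9 libraries they were at -0.51 (SE 0.17) and -0.50 (SE 0.18), not past the test. The ufmylation list, the partners of Ufm1, ran from -0.052 (Ufc1) to 0.40 (Cdk5rap3) with DHA and from -0.14 to 0.43 with cpdA, with 0 of 6 called with all 9 libraries in limma or in the 7-library fit.

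**Figure D5:**
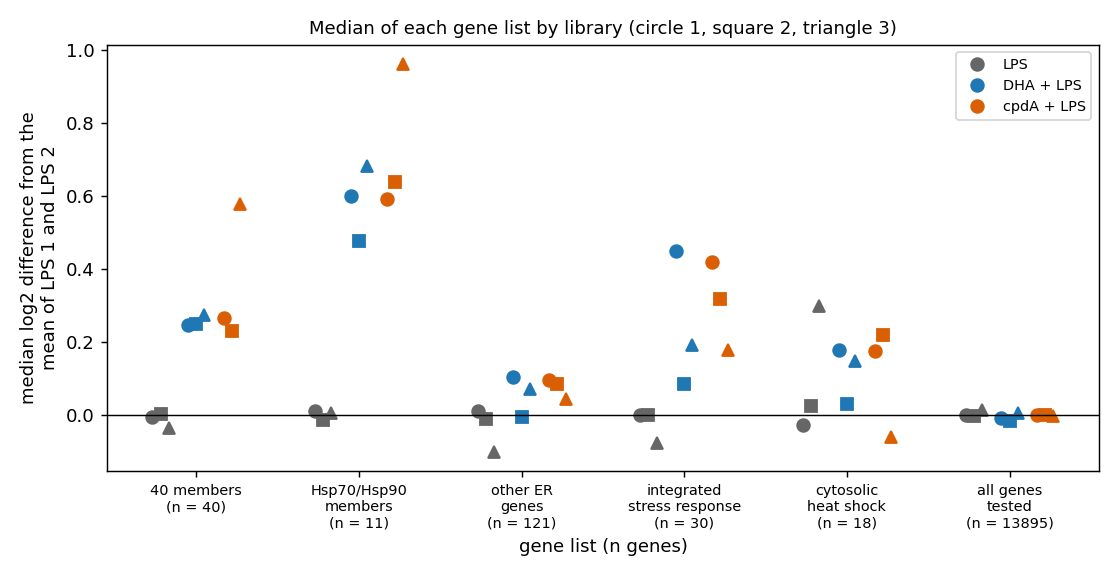
Median log2 difference from the mean of LPS 1 and LPS 2 (vertical axis) of 6 gene lists in each library; colours give the group and symbols the library number. The 11 Hsp70/Hsp90 members stand 0.48 to 0.96 above LPS in the treated libraries, the 121 other ER genes between -0.0058 and 0.11, and all 13895 genes near 0.

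The PERK branch and the cytosolic heat shock response were set beside the members. The integrated stress response is the set of genes switched on once PERK or a related kinase has phosphorylated eIF2alpha. Its 30 genes tested had a median change of 0.28 with DHA and 0.36 with cpdA (0.24 and 0.32 in the 7-library fit), much like the members. With all 9 libraries 25 of the 30 were positive in each comparison (49.8% of all genes with DHA, 49.4% with cpdA). None passed the limma test with all 9 libraries. At an unadjusted p under 0.05, 10 were higher and 1 lower with DHA, against 7.49% and 6.66% of all genes. With cpdA 17 were higher and 1 lower, against 6.56% and 8.05%. In the 7-library fit 4 rose and 1 fell with DHA, where 2.75% and 4.04% of all genes did. With cpdA 3 rose and 0 fell, where 0.712% and 0.885% did. Atf4, its main transcription factor, had 6762, 6916 and 6434 with LPS, 7187, 5494 and 6567 with DHA + LPS and 7316, 6756 and 6642 with cpdA + LPS, so its groups overlapped. Its change was -0.072 (SE 0.12) and 0.042 (SE 0.12), each sign depending on the setting. Ddit3, the factor CHOP known for cell death under ER stress, had 346.7, 361.8 and 373.5 with LPS, 479.3, 431.9 and 407.3 with DHA + LPS and 424.3, 369.0 and 565.9 with cpdA + LPS. All DHA libraries lay above LPS, but cpdA 2 did not. Its change was 0.28 (SE 0.15) and 0.31 (SE 0.15) (limma adjusted p = 0.42 and 0.385), past the test in neither fit. The 18 cytosolic heat shock genes had medians of -0.020 and -0.067 with all 9 libraries and of 0.12 and 0.18 in the 7-library fit. The list's median was 0.30 in LPS 3 and -0.059 in cpdA 3. With all 9 libraries 8 of the 18 were positive with DHA and 7 with cpdA (49.8% and 49.4% of all genes). In the 7-library fit 14 and 18 were positive (48.6% and 49.5% of all genes). In that fit 0 rose with DHA (2.75% of all genes) and 2 with cpdA (0.712%). The medians of the members and of the integrated stress response list kept their sign between these fits.

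The cells' other possible contents were read from marker lists, since plasma cells are rich in ER chaperones. Of the plasma cell list 6 of 9 genes were found. Their summed level ran from 6240 to 6633 in LPS, 7495 to 7987 in DHA + LPS and 7412 to 12886 in cpdA + LPS, nearly all of it from Sdc1 and Prdm1, which macrophages also express. Igj and Mzb1 were at most 43 and 18.1 in any library. Pou2af1 stood at 42 in LPS 3 and 52.5 in cpdA 3, against 9 to 25.4 elsewhere. Irf4 stood at 89 in LPS 3 and 66.1 in cpdA 3, against 37.8 to 57.6 elsewhere. Sdc1 was at 11416 in cpdA 3, against 4970 to 6697 in the others. Prdm1 was lowest in LPS 3, at 753. B cell markers (9 of 10 found) summed to 288.5 to 364.3 in LPS, 212.1 to 278.5 in DHA + LPS and 269.8 to 366.5 in cpdA + LPS, and 1 was at 0 in 1 or more libraries. Mesothelium and fibroblast markers (11 of 11 found) summed to 28552 to 49265, 31010 to 33036 and 32223 to 37258, the highest in LPS 3. Neutrophil, T and NK cell, and mast cell and eosinophil markers each summed to at most 508, 470 and 356. Against LPS 1 and LPS 2, LPS 3 and cpdA 3 had neutrophil medians of -1.80 and -2.35 on the log2 scale. The mast cell and eosinophil median was 1.09 and 1.05 there. It was between -0.69 and -0.51 in DHA + LPS, and -0.61 and -0.42 in cpdA 1 and cpdA 2. Of that list Kit went the other way, at 19.4 in LPS 3 and 32.6 in cpdA 3 against 60.1 to 130.4 elsewhere. The plasma cell median was 0.87 in LPS 3 and 0.75 in cpdA 3. The part of these cells in the results was not tested.

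The third comparison set cpdA + LPS against DHA + LPS, at doses of 10 and 100 µM. It called 0 members and 0 genes of 13895 with limma, edgeR or DESeq2, with all 9 libraries. At an unadjusted p under 0.05 limma had 0 members in either direction, against 0.482% of all genes higher and 0.54% lower. The median difference of the 40 genes, cpdA minus DHA, was 0.076, against -0.015 over all genes, and 37 were positive, against 45.4% of all. No member had all cpdA libraries above, or below, all DHA libraries (3.04% and 2.61% of all genes). Without LPS 3 and cpdA 3 the median was 0.029, 29 were positive (54.3% of all genes), and 0 were above and 2 below (9.57% and 9.42%), so the median was smaller without these libraries.

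For Hspa5 the difference was 0.099 (95% interval -0.25 to 0.45), and for Hyou1 0.37 (-0.12 to 0.86), so that neither an equal level nor a difference of the size of the Hyou1 estimate falls outside its interval. Without LPS 3 and cpdA 3 these differences were 0.093 and 0.089, and each was below 0 in 1 setting, for Hspa5 without DHA 2 and for Hyou1 without LPS 3, cpdA 3 and cpdA 1. Erp29, an ER protein of the isomerase fold without the catalytic site, is named here after its values were seen. It had 1377, 1394 and 1234 with LPS, 1636, 2411 and 1863 with DHA + LPS and 1576, 1492 and 2118 with cpdA + LPS. DHA 2 was the highest of all 9 libraries, at 1.47 times DHA 1, which is the reverse of most members. In the 7-library fit without DHA 1, cpdA 1 and 2 were lower than DHA 2 and 3 by a log2 difference of -0.47 (limma adjusted p = 0.0055, where 5.1% of all genes were called lower), the 1 member called in any fit of this comparison. With DHA 1 included the difference was -0.19 over 9 libraries and -0.34 over 7, and the adjusted p over the settings tried reached 1.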

How the data were processed

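The authors deposited 1 table of signal values, counts per gene divided by DESeq size factors, for 9 libraries. CASAVA 1.8.2, Bowtie2, DESeq and build mm9 are named in the submitters' processing notes. Which program and annotation made the counts, and whether strand was used, is not given in the sources used here. The deposited values were whole multiples of 1 step per library for 99.93% to 100% of genes (tolerance 0.05 in normalized count), from which whole reads were recovered. Genes with a value of at least 10 in 3 libraries were tested with limma 3.58.1 under R 4.3.3 (trend and robust options) on log2 values with 1 added, all 3 groups in 1 fit, with Benjamini-Hochberg adjustment over 13895 genes at 0.05. A change is a difference of log2(value + 1), which understates the change of low genes. edgeR 4.0.16 and DESeq2 1.42.0 on recovered reads, library weights, a replicate block, other scalings, filters and pseudocounts, and left-out libraries were alternatives; DESeq2's adjusted p was left as missing where it gave none. The fits were tested on simulated data, whose outcome is not given here. The simulated counts had the same dispersion for all genes and no library that stood apart. They therefore do not test the fits under the library differences seen here.

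The members, gene lists and the 7-library fit were chosen with earlier results of these data known. Genes named with their values were 6 leading members and the members listed by role, plus those called without LPS 3 and cpdA 3. Same-numbered LPS and cpdA libraries deviated together (r = 0.387, 0.234 and 0.437), but so did cpdA 1 with LPS 2 (0.292) and cpdA 2 with LPS 1 (0.264). Same-numbered DHA and LPS libraries (0.14, -0.0654 and 0.0199) and cpdA and DHA libraries (0.407, -0.345 and 0.013) did not in every pair; the labels do not say what a number marks. Growth and extraction texts in the labels describe other material and were not used.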

Additional observations from a re-analysis of the deposited data

How the results depend on the processing

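The medians of the 40 genes kept their direction under the 24 alternatives in both comparisons with LPS. Leaving out each library in turn gave medians of 0.25 to 0.31 with DHA, 0.26 to 0.40 with cpdA and 0.029 to 0.13 for cpdA minus DHA, whose median was -0.0042 without LPS 3, cpdA 3 and cpdA 1. The number of members called was 0 in limma with all 9 libraries. In DESeq2 it rose to 7 with DHA (1.2% of all genes higher, 1.07% lower) and 16 with cpdA (1.39% and 1.42%). With library weights it was 27 with DHA (16.2% of all genes higher, 14.8% lower) and 16 with cpdA (2.17% higher). Without LPS 3 and cpdA 3 it was 18 (2.75% higher, 4.04% lower) and 11 (0.712% and 0.885%). In fits added after seeing the data, it was 19 and 17, with 1 for cpdA against DHA, without DHA 1 as well, and 16 with DHA without cpdA 1 as well. Leaving out single libraries gave 0 to 13 calls with DHA, the 13 without cpdA 3 (1.11% of all genes), and 0 to 0 for the others. For the fits added after seeing the data, the shares of all genes stand with their calls above. Leaving out cpdA 3 does not move the DHA and LPS means. It enters the DHA comparison only through the spread that the groups share in the fit. Why the other counts differ was not tested. A fit with the replicate number as a block called 0 members in each comparison, with medians of 0.28, 0.32 and 0.076, and changed no call.

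The sign of a few small changes depended on the setting. With DHA, Sil1 was at 0.0027 under TMM scaling, 0.0059 in edgeR and -0.070 to 0.083 with single libraries left out. Ero1l was at -0.015 without LPS 3 and cpdA 3, -0.035 and -0.015 also without DHA 1 or cpdA 1, and -0.015 to 0.23 with single libraries left out; the range for Ero1lb was -0.031 to 0.13. Ufm1 was at -0.024 with weights, -0.086 without LPS 3 and cpdA 3, -0.12 and -0.086 also without DHA 1 or cpdA 1, and -0.086 to 0.075 with single libraries left out. Atf4 was at 0.059 under quantile normalization and -0.16 to 0.036 with single libraries left out.

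With cpdA, quantile normalization gave 0.076 for Os9, 0.048 for Ufm1 and 0.036 for Gfpt1, TMM scaling 6.6e-05 for Ufm1, and weights -0.0057 for Sil1 and 0.019 for Gfpt1. Without LPS 3 and cpdA 3, and also without DHA 1, Sil1 was at -0.00034 and -0.00034, and Gfpt1 at 0.047 and 0.047. Without cpdA 1 as well, Fkbp2 was at -0.017, Ero1lb at -0.018, Ufm1 at 0.065, Atf4 at -0.018 and Gfpt1 at 0.13. Leaving out single libraries gave -0.0026 to 0.061 for Sil1, -0.097 to 0.047 for Ufm1, -0.00055 to 0.069 for Atf4 and -0.17 to 0.056 for Gfpt1. For cpdA minus DHA, Hspa5 ran from -0.025 to 0.20 with single libraries left out, and Hyou1 was at -0.014 without LPS 3, cpdA 3 and cpdA 1.

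With 3 libraries a group, an exact permutation test of a single gene cannot go below p = 0.1. DHA 1 was the shallowest library, and members near the filter are the least precise. The comparison of protein ends was not run.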
